A study of Drosophila melanogaster with 66 samples.

Results

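The heat shock proteins and cognates described here are 10 genes, chosen with earlier results of these data known. They include the small heat shock protein genes Hsp23, Hsp26 and Hsp27 and the Hsp90 gene Hsp83. The others are the Hsp70 cognates Hsc70-1, Hsc70-3, Hsc70-4 and Hsc70-5, and the co-chaperone genes DnaJ-1 and Cdc37. A probe set was taken as a member where the array annotation gives it 1 of these symbols alone. This found 10 probe sets, of 18769 on the array apart from controls, for 8 of the 10 genes. No probe set carries the symbol Hsp83 or Hsp23 in the annotation used here, and these genes were not analysed here. Hsc70-1 has 3 probe sets and the other 7 genes have 1 each.

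Heat shock proteins are molecular chaperones, which bind unfolded or partly folded proteins and keep them from aggregating. Small heat shock proteins hold such proteins in large oligomers, Hsp70 proteins and their constitutive cognates fold them in cycles of ATP hydrolysis that J proteins such as DnaJ-1 start, and Hsp90 matures signalling proteins with co-chaperones such as Cdc37. In Drosophila the small heat shock genes Hsp26 and Hsp27 are also transcribed without heat in the nurse cells of the ovary, so that the egg is laid with their mRNAs. Early embryos depend on such maternal mRNAs until the zygotic genome is switched on and the maternal supply is broken down.

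Canton S wild type embryos were collected over intervals of 2 hours and aged to 0-2, 4-6 or 8-10 hours after egg laying, with no heat shock in any group. Each period has 2 untreated gradients of soluble extract prepared with cycloheximide and magnesium, 8 arrays to a gradient (the pooled fractions 1-5, then fractions 6 to 12 singly), 1 gradient in EDTA, which takes ribosomes apart, with 4 arrays, and 2 arrays of unfractionated RNA, or 66 arrays in all. Ribosomal occupancy stands here for the part of an mRNA's signal, on the linear scale and in percent, that lay in fractions 6-12, the pool of fractions 1-5 being counted 5 times because it held their average. The Logit, on which occupancy was tested, is the natural log of the ratio of the parts in fractions 6-12 and 1-5. An mRNA with equal signal on all arrays of a gradient has an occupancy of 58.3%.

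The arrays were scaled to each other, so occupancy is a measure relative to the bulk of mRNAs and not an absolute share. Of the stage markers, bcd and osk were at log2 signals of 10.64 to 12.47 in unfractionated RNA of 0-2 hours, twi was highest at 4-6 hours (10.42 and 10.28), and repo was at 8.80 and 8.83 only at 8-10 hours, in the order of the labels. The 6 eggshell genes with a probe set were at 3.57 to 5.76 on all of these arrays, and Hsp68, the inducible Hsp70 gene that has a probe set of its own, was at 5.57 to 6.51. The arrays of replicate 2 of unfractionated RNA held more bcd and osk mRNA than those of replicate 1 at the later periods. In replicates 1 and 2 of 4-6 hours, bcd stood at 6.14 and 7.48 and osk at 5.95 and 8.43. In those of 8-10 hours, bcd stood at 6.12 and 6.89 and osk at 6.73 and 8.20. For gcl, the other maternal marker with a probe set, the pairs lay closer together, at 8.64 and 9.18, then 9.97 and 10.10. The labels call the replicates biological, and the methods call the gradients of a period independent. No source used here says whether they came from separate collections of embryos, so the p-values below measure only the spread between these samples.

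Of the 8 genes found, 7 passed the filter on low signal (mean gradient signal in the top 50% in at least 1 period) and were tested with limma among 10358 probe sets, with p adjusted by Benjamini-Hochberg. From 0-2 to 4-6 hours the level in unfractionated RNA fell for 4 of the 7 (Hsp26, Hsp27, Hsc70-5, DnaJ-1) and rose for Cdc37, beside 50.5% of all tested probe sets called in either direction, 24.6% lower and 25.9% higher. The median change of the 7 was -0.85 on the log2 scale, and 0.10 over all tested probe sets. From 4-6 to 8-10 hours 2 members rose (Hsc70-3 and Hsc70-5) and none fell, beside 30.3% of all tested probe sets called, 16.2% higher and 14.1% lower. From 0-2 to 8-10 hours 2 members fell (Hsp26 and Hsp27) and none rose, beside 54.3% called, 27.2% higher and 27.1% lower. In bulk embryo RNA, fewer cells that hold an mRNA and less of it per cell cannot be told apart.

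Occupancy rose from 0-2 to 4-6 hours for 4 of the 7 members (Hsp27, Hsc70-5, DnaJ-1, Cdc37) and fell for none, beside 46% of all tested probe sets called in either direction, 26.3% higher and 19.7% lower. The median change in Logit was 0.69 over the members and -0.01 over all tested probe sets. From 4-6 to 8-10 hours occupancy fell for Hsp26 alone, beside 6.26% of all tested probe sets called, 3.48% higher and 2.78% lower. From 0-2 to 8-10 hours it rose for 3 members (Hsp27, Hsc70-5, Cdc37) and fell for Hsp26, beside 49.6% called, 28.7% higher and 20.8% lower.

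**Figure D1:**
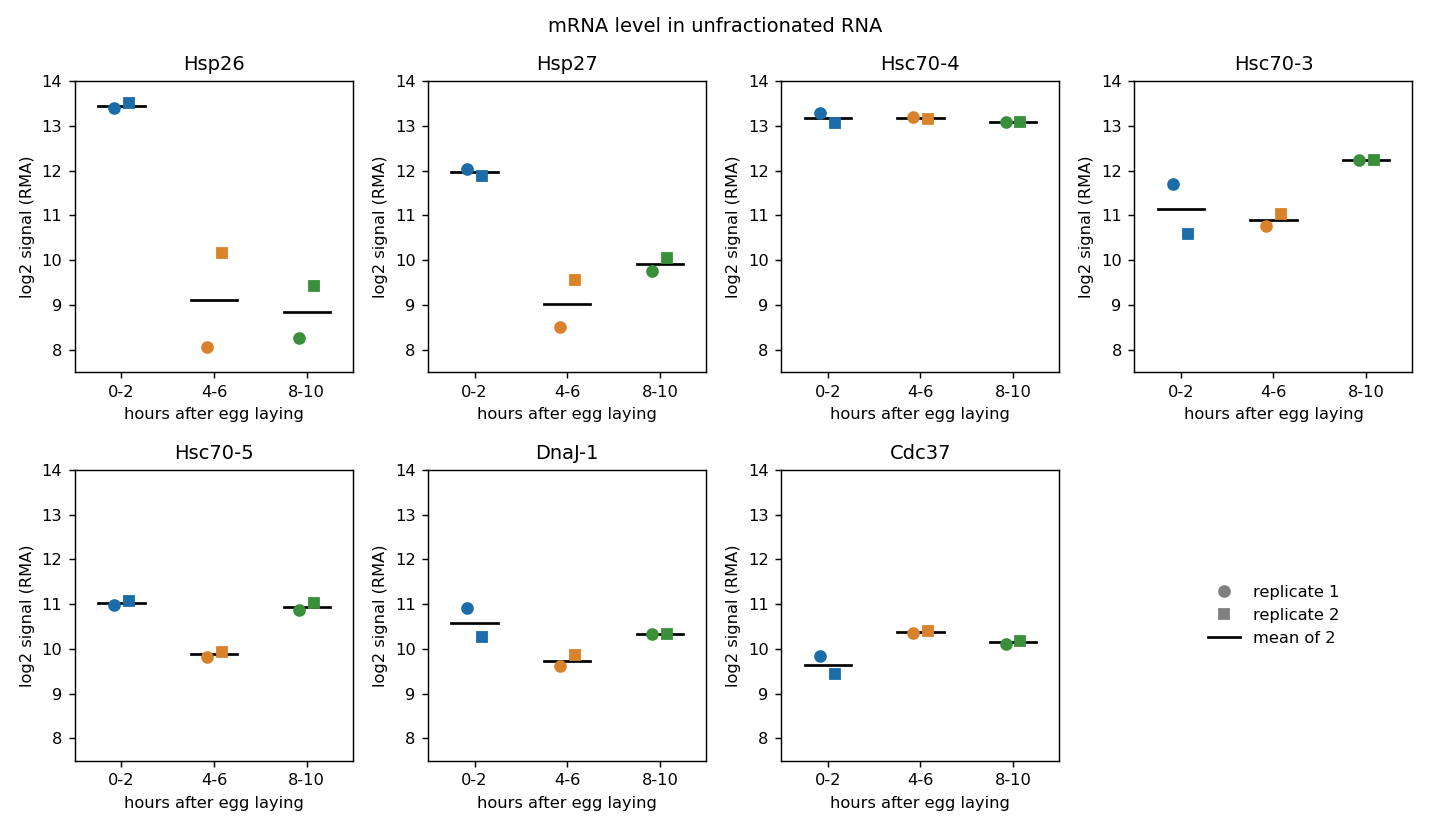
Level of each tested gene in unfractionated RNA, as the log2 signal of each array (circles, replicate 1; squares, replicate 2) and the mean of the 2 arrays of a period (horizontal lines), against hours after egg laying. Hsp26 and Hsp27 stood at 11.88 to 13.50 at 0-2 hours and lower on every later array, while Hsc70-4 lay at 13.07 to 13.28 on all 6 arrays.

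Hsp26, a small heat shock protein, had the largest fall in level of the 7 members. Its log2 signals in unfractionated RNA were 13.39 and 13.50 at 0-2 hours, 8.06 and 10.16 at 4-6 hours, and 8.25 and 9.42 at 8-10 hours. Both later periods lay below 0-2 hours on every array and overlapped each other. The fall was 4.33 ± 0.74 (SE) to 4-6 hours, or 20.2-fold (adjusted p = 0.0053), and 4.61 ± 0.74 from 0-2 to 8-10 hours, or 24.4-fold (adjusted p = 0.0039). The 2 arrays of 4-6 hours differed by 2.10, more than did those of 99.6% of the tested probe sets, and the array with the higher Hsp26 was replicate 2, which also held more bcd and osk; the part of this in the difference was not tested.

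Between 4-6 and 8-10 hours the direction for Hsp26 differed between the sources of RNA. In unfractionated RNA the change was -0.27 ± 0.74 on the log2 scale (adjusted p = 0.81). In the untreated gradients the summed signal of Hsp26 had log2 values of 16.40 and 16.06 at 0-2 hours, 11.40 and 11.40 at 4-6 hours, and 13.02 and 12.66 at 8-10 hours, so both gradients of 8-10 hours were above both of 4-6 hours. That was a rise of 1.44 in the same test on summed signals (adjusted p = 0.00098). In the same gradients the sums for bcd were 10.12 and 9.85 at 4-6 hours and 9.48 and 9.26 at 8-10 hours, and those for osk were 10.03 and 9.98, then 11.68 and 10.87.

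The occupancy of Hsp26 was 61.1% and 68.7% in the 2 gradients of 0-2 hours, 59.5% and 64.8% at 4-6 hours, and 40.6% and 28.6% at 8-10 hours. Only the gradients of 8-10 hours stood apart, and at that period 1.7% of the tested probe sets had a lower mean. The Logit changed by -0.12 ± 0.21 from 0-2 to 4-6 hours (95% interval -0.56 to 0.32, adjusted p = 0.68), fell by 1.14 ± 0.21 from 4-6 to 8-10 hours (adjusted p = 0.0032), and fell by 1.27 ± 0.21 from 0-2 to 8-10 hours (adjusted p = 0.00011). Without replicate 2 of 4-6 hours the call between the later periods was lost (adjusted p = 0.087).

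Along the gradient, Hsp26 mRNA at 0-2 hours had a peak in fraction 10, with 16.4% and 19.5% of its signal. At 8-10 hours fraction 10 held 7.24% and 3.85%, and the pool of fractions 1-5 held 59.4% and 71.4%. The share in fraction 10 was thus lower, and that in the pool higher, at 8-10 hours in both replicates. By the limits in the study's methods (a Logit below -0.15 with an SD of the profile below 1), Hsp26 was in the preferentially untranslated class at 8-10 hours and in neither class before. The methods also describe a filter on release by EDTA ahead of further analyses. It was not applied here or in the classes given below, so these need not be the study's own classes.

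**Figure D2:**
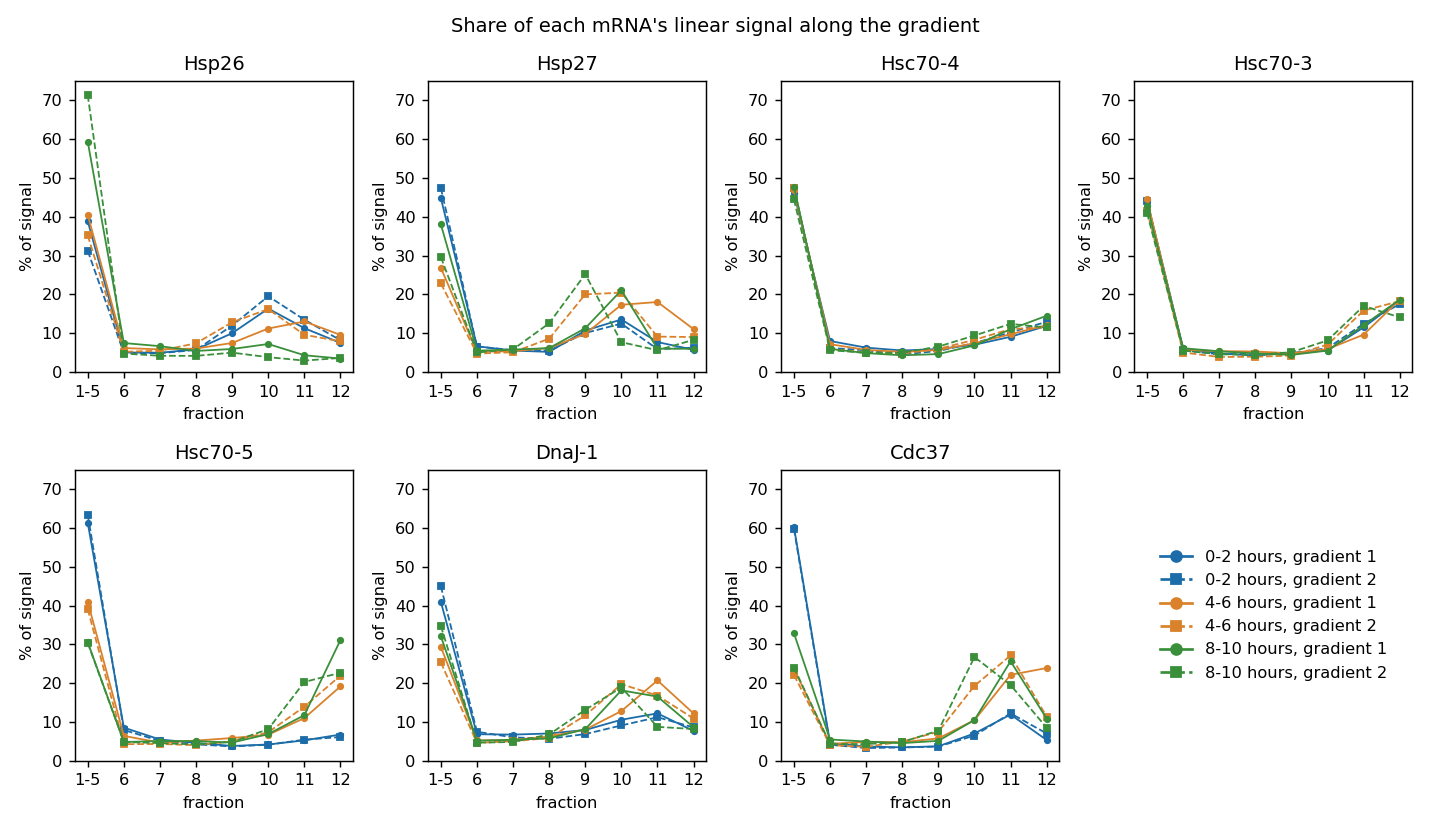
Percentage of each gene's linear signal in the pool of fractions 1-5 and in fractions 6 to 12, for the 2 untreated gradients of each period (solid lines with circles, gradient 1; dashed lines with squares, gradient 2). The Hsp26 peak in fraction 10 at 0-2 hours is lower in gradient 1 of 8-10 hours and missing in gradient 2, and the pool falls in Hsc70-5 and Cdc37 after 0-2 hours.

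Hsp27, also a small heat shock protein, lies near Hsp26 on chromosome arm 3L with 2 protein-coding genes between them, Hsp67Ba and Hsp23. Its log2 signals were 12.03 and 11.88 at 0-2 hours, 8.50 and 9.55 at 4-6 hours, and 9.76 and 10.06 at 8-10 hours, with no overlap between any of the periods. The level fell by 2.94 ± 0.36 from 0-2 to 4-6 hours (7.65-fold, adjusted p = 0.0016), and at 8-10 hours it was 4.14-fold below that of 0-2 hours (adjusted p = 0.0053). Between 4-6 and 8-10 hours it differed by 0.88 ± 0.36, which missed the threshold (adjusted p = 0.12), while in the summed signals of the gradients, 12.46 and 12.33 against 13.68 and 13.97, it was 1.43 (adjusted p = 0.00069).

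The occupancy of Hsp27 was 55.1% and 52.5% at 0-2 hours, 73.1% and 77.2% at 4-6 hours, and 61.9% and 70.4% at 8-10 hours, so both later periods were above 0-2 hours and 8-10 hours was below 4-6 hours on every gradient. The Logit rose by 0.96 ± 0.19 from 0-2 to 4-6 hours (adjusted p = 0.00056) and by 0.52 ± 0.19 from 0-2 to 8-10 hours (adjusted p = 0.030), and between 4-6 and 8-10 hours it differed by -0.43 ± 0.19 (adjusted p = 0.22). The call at 8-10 hours was lost without replicate 1 of 0-2 hours (adjusted p = 0.064), replicate 2 of 0-2 hours (0.12) or replicate 2 of 8-10 hours (0.21).

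The peak of Hsp27 mRNA within the polysomes was in fraction 10 in both gradients of 0-2 hours, with 13.6% and 12.5% of the signal. At the later periods the gradients of a period peaked 1 fraction apart, in fractions 11 and 10 at 4-6 hours and in fractions 10 and 9 at 8-10 hours. Gradient 2 of 8-10 hours held 25.2% in fraction 9 where gradient 1 held 11.3%, so the position of this peak was less certain than the occupancy.

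Hsc70-4, the main constitutive Hsp70 of the cytosol, which also uncoats clathrin-coated vesicles, had closely similar values at all periods. Its log2 signals in unfractionated RNA were 13.28 and 13.07 at 0-2 hours, 13.20 and 13.14 at 4-6 hours, and 13.09 and 13.10 at 8-10 hours. Both later pairs lay within the range of 0-2 hours. The change from 0-2 to 4-6 hours was -0.01 (95% interval -0.36 to 0.35) and that from 0-2 to 8-10 hours was -0.09 (-0.44 to 0.27), adjusted p = 0.97 and 0.64. Its occupancy was 53.9% and 52.5%, then 53.1% and 52.7%, then 52.3% and 55.5%, and all periods overlapped. The Logit changed by -0.01 (95% interval -0.38 to 0.35) from 0-2 to 4-6 hours and by 0.03 (-0.34 to 0.39) from 0-2 to 8-10 hours. Its log2 signals over the 48 untreated gradient arrays ran from 11.94 to 13.68, and the highest value of any probe set in the table was 14.25; saturation was not tested.

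Hsc70-3, the counterpart of BiP in the lumen of the endoplasmic reticulum, had log2 signals of 11.70 and 10.59 at 0-2 hours, 10.76 and 11.03 at 4-6 hours, and 12.24 and 12.23 at 8-10 hours. Those of 0-2 hours spanned the pair of 4-6 hours, and both of 8-10 hours were above all others. The level rose by 1.34 ± 0.37 from 4-6 to 8-10 hours (2.53-fold, adjusted p = 0.045), and the difference of 1.09 ± 0.37 between 0-2 and 8-10 hours missed the threshold (adjusted p = 0.052). The call from 4-6 to 8-10 hours was lost under 7 of 13 alternatives, among them the removal of replicate 1 of 4-6 hours (adjusted p = 0.21), replicate 2 of 4-6 hours (0.13), replicate 1 of 8-10 hours (0.16) or replicate 2 of 8-10 hours (0.17). In the summed signals of the gradients the same rise was 1.34 (adjusted p = 0.00070), and a fall of 1.31 from 0-2 to 4-6 hours also passed there (adjusted p = 0.00032).

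The occupancy of Hsc70-3 was 55.8% and 55.8% at 0-2 hours, 55.5% and 58.4% at 4-6 hours, and 57.1% and 59.0% at 8-10 hours. No change in Logit passed the test, and the 95% interval of the change from 0-2 to 8-10 hours was -0.27 to 0.46. Its polysomal signal was concentrated at the bottom of the gradient, with 18.6% and 17.5% in fraction 12 at 0-2 hours, 18.7% and 18.3% at 4-6 hours, and 18.7% and 14.1% at 8-10 hours. Fraction 12 was the peak in 5 of the 6 gradients for both Hsc70-3 and Hsc70-4, and gradient 2 of 8-10 hours peaked in fraction 11.

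Hsc70-5, the Hsp70 of the mitochondrial matrix, which takes part in protein import and folding there, dipped in level at 4-6 hours while its occupancy rose. Its log2 signals were 10.97 and 11.06 at 0-2 hours, 9.82 and 9.94 at 4-6 hours, and 10.87 and 11.02 at 8-10 hours. Only 4-6 hours stood apart. The level fell by 1.14 ± 0.14 from 0-2 to 4-6 hours (2.20-fold, adjusted p = 0.0017) and rose by 1.06 ± 0.14 from 4-6 to 8-10 hours (2.09-fold, adjusted p = 0.0049). The change from 0-2 to 8-10 hours was -0.07 (95% interval -0.43 to 0.28).

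The occupancy of Hsc70-5 was 38.7% and 36.7% at 0-2 hours, 59.1% and 60.9% at 4-6 hours, and 69.5% and 69.6% at 8-10 hours, so that each period was above the one before it in both gradients. Of the tested probe sets 10.6% had a lower mean occupancy at 0-2 hours, 47.1% at 4-6 hours and 72.6% at 8-10 hours. The Logit rose by 0.91 ± 0.17 from 0-2 to 4-6 hours (adjusted p = 0.00039) and by 1.33 ± 0.17 from 0-2 to 8-10 hours (adjusted p = 1.3e-05). The step of 0.42 ± 0.17 between the later periods missed the threshold (adjusted p = 0.19). At 0-2 hours Hsc70-5 was in the preferentially untranslated class, and its polysomal signal was highest in fraction 6 in both gradients, at 8.55% and 7.93%, whereas at 8-10 hours fraction 12 held 31.1% and 22.7%.

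Hsc70-1, a further Hsp70 cognate, did not pass the filter on low signal with any of its 3 probe sets, so it was not tested. Their log2 signals in unfractionated RNA lay between 3.69 and 4.90 on all 6 arrays. On the 48 untreated gradient arrays they lay between 3.61 and 5.16, and occupancies at this level of signal were not read.

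DnaJ-1, a heat-inducible J protein that stimulates the ATPase of Hsp70, had log2 signals of 10.92 and 10.26 at 0-2 hours, 9.62 and 9.86 at 4-6 hours, and 10.34 and 10.33 at 8-10 hours. Both arrays of 4-6 hours were below all others, and those of 8-10 hours lay within the range of 0-2 hours. The level fell by 0.85 ± 0.25 from 0-2 to 4-6 hours (1.80-fold, adjusted p = 0.035). This call was lost under 5 of 13 alternatives, with adjusted p of 0.17 without replicate 1 of 4-6 hours, 0.088 without replicate 2 of 4-6 hours and 0.072 without either replicate of 8-10 hours, while the summed signals of the gradients fell by 1.51 (adjusted p = 0.00071). In those sums 8-10 hours was also above 4-6 hours, by 0.73 (adjusted p = 0.027), and below 0-2 hours, by a change of -0.79 (adjusted p = 0.013).

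The occupancy of DnaJ-1 was 59.1% and 55.0% at 0-2 hours, 70.6% and 74.7% at 4-6 hours, and 67.9% and 65.3% at 8-10 hours. Both later periods were above 0-2 hours, and 8-10 hours was below 4-6 hours. The Logit rose by 0.70 ± 0.18 from 0-2 to 4-6 hours (adjusted p = 0.0041), a call that was lost without replicate 2 of 4-6 hours (adjusted p = 0.063). Between 0-2 and 8-10 hours the Logit differed by 0.41 ± 0.18, short of the threshold (95% interval 0.03 to 0.78, adjusted p = 0.070). The peak was in fraction 11 in both gradients of 0-2 hours and in fraction 10 in both of 8-10 hours.

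Cdc37, the co-chaperone that brings protein kinases to Hsp90, had the largest rise in occupancy of the 7 members. Its log2 signals in unfractionated RNA were 9.84 and 9.44 at 0-2 hours, 10.35 and 10.40 at 4-6 hours, and 10.11 and 10.18 at 8-10 hours, and both later periods were above 0-2 hours. The level rose by 0.74 ± 0.18 from 0-2 to 4-6 hours (1.67-fold, adjusted p = 0.018), a call that was lost without replicate 1 (adjusted p = 0.081) or replicate 2 (0.094) of 4-6 hours. The difference of 0.50 ± 0.18 between 0-2 and 8-10 hours missed the threshold (adjusted p = 0.058). The gradients went the other way, with summed log2 signals of 13.93 and 14.03, then 13.81 and 13.63, then 13.50 and 13.58. There the change from 0-2 hours was -0.26 to 4-6 hours (adjusted p = 0.13) and -0.44 to 8-10 hours (adjusted p = 0.021). The direction of its change thus differed between unfractionated RNA and the sums, which are no absolute level. Whether the source of RNA or the way the sums are formed made this difference was not tested.

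The occupancy of Cdc37 was 39.8% and 40.2% at 0-2 hours, 76.3% and 77.9% at 4-6 hours, and 67.2% and 76.0% at 8-10 hours. Both gradients of 0-2 hours differed by less than 1 point from each other and lay below all later ones. The Logit rose by 1.62 ± 0.19 from 0-2 to 4-6 hours (adjusted p = 5.7e-06) and by 1.34 ± 0.19 from 0-2 to 8-10 hours (adjusted p = 2.7e-05). At 0-2 hours 12.6% of the tested probe sets had a lower mean occupancy, and at 4-6 hours 87.7% did. Cdc37 was in the preferentially untranslated class at 0-2 hours, although a minor peak in fraction 11 (11.9% and 12.2%) was present at that period, and fraction 11 held 22.2% and 27.1% at 4-6 hours. In gradient 1 of 4-6 hours fraction 12 was slightly higher still, at 23.9%.

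**Figure D3:**
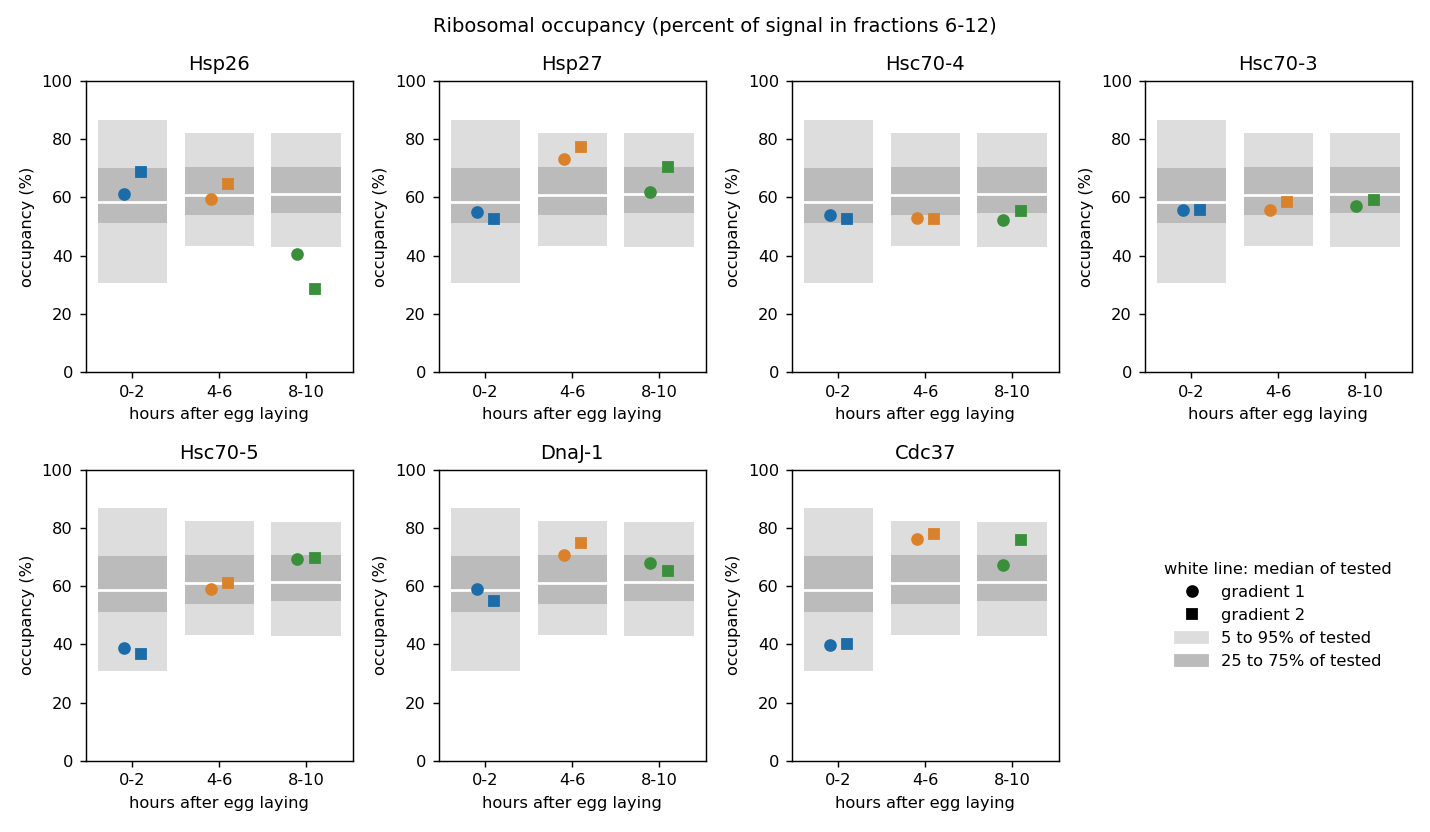
Ribosomal occupancy of each tested gene in the 2 untreated gradients of each period (circles and squares), over the 5 to 95% range (light grey), the 25 to 75% range (dark grey) and the median (white line) of all tested probe sets. Hsc70-5 and Cdc37 rose from below 41% at 0-2 hours to above 59% later, and Hsp26 fell to 40.6% and 28.6% at 8-10 hours.

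How heavy the polysomes were was compared by the share of polysomal signal in fractions 10-12, tested as the natural log of the ratio of fractions 10-12 to fractions 6-9. From 0-2 to 4-6 hours this ratio rose for Hsc70-5 and Cdc37, beside 10.7% of all tested probe sets called, 7.43% higher and 3.3% lower. From 4-6 to 8-10 hours it fell for Hsp26, beside 3.21% called, 2.6% higher and 0.608% lower. From 0-2 to 8-10 hours it rose for Hsc70-5 and fell for Hsp26, beside 21% called, 13.9% higher and 7.12% lower.

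For Hsc70-5 the share of polysomal signal in fractions 10-12 was 41.9% and 42.8% at 0-2 hours, 62.5% and 71.0% at 4-6 hours, and 71.6% and 73.5% at 8-10 hours. Its log ratio rose by 1.01 ± 0.15 (adjusted p = 0.0088) and then stood 1.28 ± 0.15 above 0-2 hours (adjusted p = 0.0020). For Hsp26 the share was 57.6% and 60.0% at 0-2 hours, 56.9% and 52.1% at 4-6 hours, and 37.1% and 36.5% at 8-10 hours, and the ratio fell by 0.72 ± 0.13 from 4-6 hours (adjusted p = 0.028) and by 0.90 ± 0.13 from 0-2 hours (adjusted p = 0.0034). For Cdc37 it was 61.2% and 64.0% at 0-2 hours and 74.1% and 74.2% at 4-6 hours (a rise of 0.54 ± 0.13, adjusted p = 0.032). For Hsp27 the gradients of 8-10 hours differed most, at 53.5% and 30.8%. These calls were less stable than those on occupancy. With fractions 10-12 set over fractions 8-9 alone the only call that remained was that for Hsc70-5 from 0-2 to 8-10 hours, and it was the only one that held under all 12 alternatives (adjusted p up to 0.043).

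EDTA takes ribosomes off mRNA, which should move mRNA held in polysomes towards fractions 1-5. The arrays were scaled to each other, so a gain there could at most show release beyond that of the bulk of mRNAs. The median change over all tested probe sets was -0.03 at 0-2 hours and 0.06 at both later periods. An mRNA released like the bulk would show no gain, so a missing call does not tell whether it was held in polysomes. With EDTA no member passed at 0-2 hours, beside 8.69% of all tested probe sets called, 6.33% higher and 2.36% lower. At 4-6 hours 3 members rose in fractions 1-5 (Hsp27, DnaJ-1, Cdc37), beside 16.4% called, 12.9% higher and 3.49% lower. At 8-10 hours DnaJ-1 and Cdc37 rose and Hsp26 fell, beside 16.2% called, 12.6% higher and 3.52% lower. There is 1 EDTA array of fractions 1-5 per period, so the spread in these tests is that between untreated arrays.

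Hsp26 had log2 signals in fractions 1-5 of 12.72 and 12.06 without EDTA and 13.28 with it at 0-2 hours, and of 7.78 and 7.57 without and 8.48 with it at 4-6 hours. At 8-10 hours the order was turned, with 9.94 and 9.85 without and 8.54 with EDTA. The difference was 0.90 ± 0.32 at 0-2 hours (adjusted p = 0.12), 0.81 ± 0.32 at 4-6 hours (0.12) and -1.36 ± 0.32 at 8-10 hours (0.022). The change of the EDTA effect between 0-2 and 8-10 hours was -2.25 ± 0.45, with an adjusted p of 0.053. With EDTA at 8-10 hours the 4 pools of that gradient held 17.2%, 15.8%, 27.9% and 39.0% of its signal from light to heavy, each pool counted alike, against means of 46.6%, 20.3%, 18.2% and 14.9% in the untreated gradients. At 4-6 hours fractions 10-12 already held 39.4% with EDTA, against a mean of 34.2% without. Fractions 1-5 then held 18.1% with EDTA, against 25.2% and 20.8% without, although their signal was higher. At 0-2 hours that share was higher with EDTA, at 27.04% against 23.97% and 18.52%.

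Cdc37 was at 10.88 and 10.97 in fractions 1-5 without EDTA and 10.18 with it at 0-2 hours, at 9.41 and 9.13 without and 10.35 with it at 4-6 hours, and at 9.57 and 9.20 without and 10.38 with it at 8-10 hours. The differences of 1.08 ± 0.28 at 4-6 hours (adjusted p = 0.031) and 0.99 ± 0.28 at 8-10 hours (0.042) passed, and -0.74 ± 0.28 at 0-2 hours did not (0.14). DnaJ-1 was above both untreated arrays with EDTA in every period, by 0.61 ± 0.31 at 0-2 hours (adjusted p = 0.27), 1.43 ± 0.31 at 4-6 hours (0.015) and 1.07 ± 0.31 at 8-10 hours (0.043). Its share in fractions 1-5 at 0-2 hours was nevertheless lower with EDTA (20.96%) than without (25.09% and 28.41%). The share was higher with EDTA at 4-6 hours (22.2% against 17.5% and 14.7%) and at 8-10 hours (24.4% against 19.4% and 20.7%). Whether a higher signal with a lower share reflects release was not tested. For Hsp27 at 4-6 hours the share in fractions 1-5 was 18.8% with EDTA, against 15.7% and 12.4% without. Fractions 10-12 still held 32.1% with EDTA, against 45.3% and 35.1% without. In the signal of fractions 1-5 the change was as follows. Hsp27 rose by 1.20 ± 0.27 at 4-6 hours (adjusted p = 0.019). With the replicate number as a block, only the fall of Hsp26 at 8-10 hours still passed among these calls. No member passed the test of a difference in the EDTA effect between periods, where limma called 0% of all tested probe sets between 0-2 and 4-6 hours (1801 at an unadjusted p below 0.05), 0.0193% between 4-6 and 8-10 hours, all lower, and 0.0676% between 0-2 and 8-10 hours, 0.029% higher and 0.0386% lower.

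**Figure D4:**
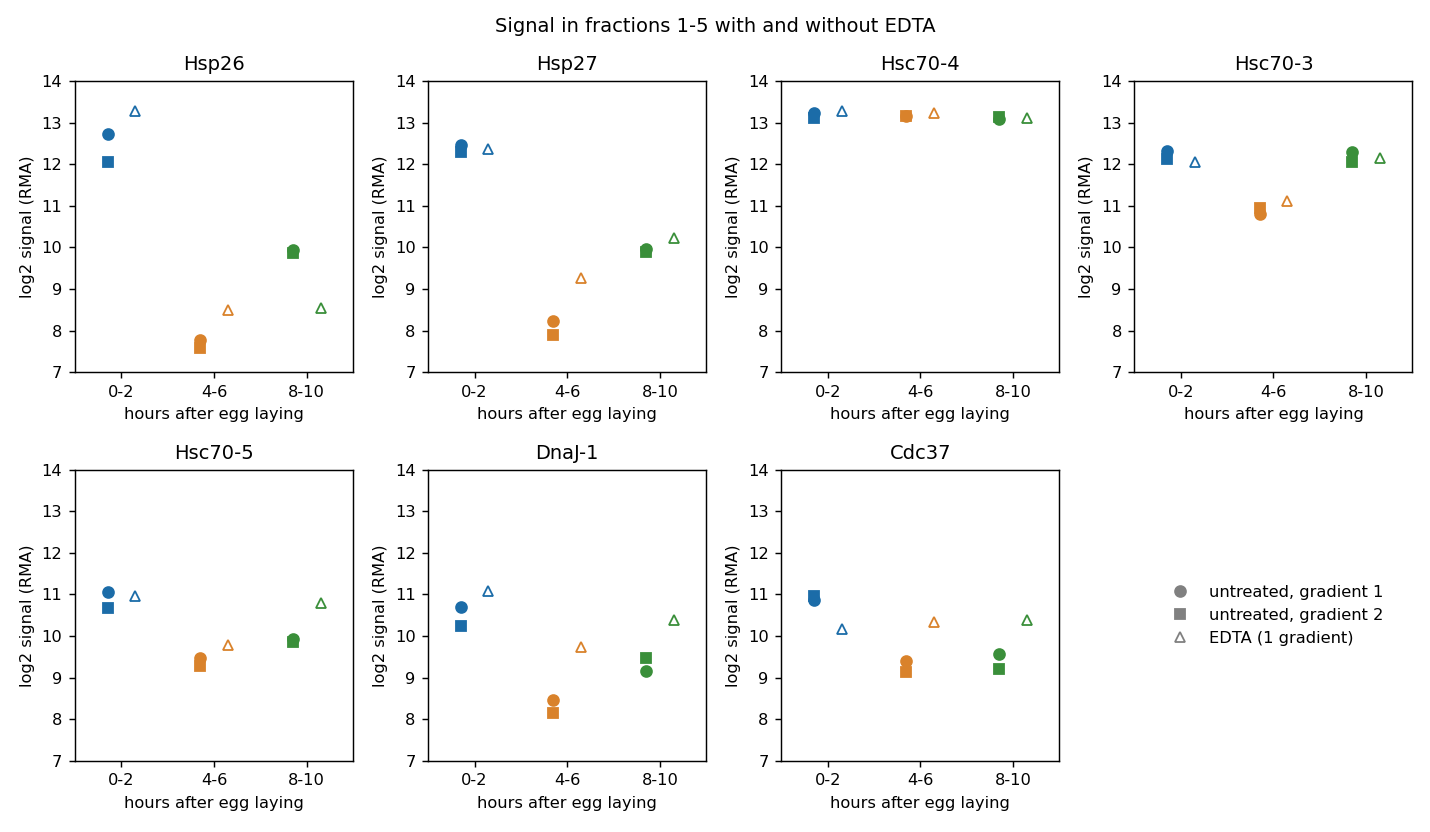
Log2 signal of each tested gene in the pool of fractions 1-5 without EDTA (filled circles and squares, 2 gradients) and with EDTA (open triangles, 1 gradient) at each period. The EDTA array of Hsp26 is above the untreated arrays at 0-2 and 4-6 hours and below them at 8-10 hours, and that of Cdc37 is below them at 0-2 hours and above them later.

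The other chaperone genes were taken from 10 lists that hold 77 genes, of which 63 have a probe set of their own and 53 were tested. From 0-2 to 4-6 hours the level of 10 rose and of 27 fell, beside 25.9% and 24.6% of all tested probe sets. Occupancy rose for 26 and fell for 6, beside 26.3% and 19.7%. From 4-6 to 8-10 hours the level of 12 rose and of 3 fell, beside 16.2% and 14.1%, with 1 gene up and 1 down in occupancy, beside 3.48% and 2.78%. From 0-2 to 8-10 hours the level of 11 rose and of 21 fell, beside 27.2% and 27.1%. Occupancy rose there for 23 and fell for 7, beside 28.7% and 20.8%. These shares also stand beside the counts by list below.

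The 8 subunits of the CCT chaperonin, the ring that folds actin and tubulin, moved together. From 0-2 to 4-6 hours all 8 fell in level (median -1.72 on the log2 scale) and all 8 rose in occupancy (median change in Logit 0.65). The largest falls were those of CCT2 by 2.11 (adjusted p = 0.0012) and CCT6 (log2 change -2.06), and the largest rise in Logit was that of CCT5, by 0.88 (adjusted p = 0.00067), as its occupancy went from 45.25% ± 0.33 to 66.5% ± 0.73 (SD, n = 2). From 0-2 to 8-10 hours all 8 were still up in occupancy, and 7 were down in level.

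Among the 9 tested partners of Hsp90, the level of 6 fell and of 1 rose from 0-2 to 4-6 hours, and occupancy rose for 5 and fell for 1. Occupancy rose for unc-45, a myosin chaperone, from 30.1% ± 3.8 to 77.8% ± 2.2 (SD, n = 2; Logit up by 2.10, adjusted p = 9.2e-07), and for Stip1, which joins Hsp70 to Hsp90, from 33.9% ± 1.2 to 75.2% ± 0.28 (Logit up by 1.77, adjusted p = 1.4e-06). STUB1, a ubiquitin ligase that binds Hsp70 and Hsp90, fell in occupancy from 93.4% ± 1.2 to 72.8% ± 3.6 and in level by 3.88 (adjusted p = 0.00039).

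Of the 20 tested J proteins, 6 rose and 7 fell in level from 0-2 to 4-6 hours, beside 25.9% and 24.6% of all tested probe sets. Occupancy rose for 8 and fell for 3, beside 26.3% and 19.7%. DnaJ-H fell in level by 3.52 and wus had a log2 change of -3.10, and Csp, the cysteine string protein of synaptic vesicles, rose by 1.80. Occupancy changed most for CG10565, whose Logit fell by 1.81 (93.9% to 71.6%), for CG7872, whose Logit fell by 1.40, and for P58IPK, a J protein of the endoplasmic reticulum, whose Logit rose by 1.29 (45.6% to 75.3%). Of the other Hsp70 cognates, Hsp110 fell in level by 1.08 and rose in occupancy from 26.8% to 68.0% (adjusted p = 6.0e-06), and Hsc70-2 rose in level by 1.42. The signal of Hsc70-2 was low, with mean log2 values of 4.41 at 0-2 hours and 5.83 at 4-6 hours. The first of these lay within the range of Hsc70-1, whose occupancies were not read.

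Of the 3 tested mitochondrial chaperones, Hsp60A, the chaperonin of the matrix, fell in level by 3.65 (adjusted p = 0.0027) and rose in occupancy from 26.9% ± 1.9 to 56.9% ± 0.45 (SD, n = 2). CG11267, the co-chaperonin Hsp10, fell in level by 1.75 (adjusted p = 0.00092), with a difference in Logit of 0.36 (adjusted p = 0.15). Trap1, the mitochondrial Hsp90, rose in occupancy from 51.1% to 77.0% (adjusted p = 0.00015), with a log2 difference in level of -0.02 (adjusted p = 0.92). Of the 3 tested chaperones of the endoplasmic reticulum, where Hsc70-3 works, Gp93 and Cnx99A rose in level, by 1.13 and 0.60, and occupancy fell for Gp93 and ERp60 and rose for Cnx99A, from 31.1% to 58.8%. The nucleotide exchange factors Roe1 and Sil1 had log2 changes in level of -2.38 and -1.72. Hsf, the factor that switches on heat shock genes, fell in level by 1.01 (adjusted p = 0.0058) and had occupancies of 49.0%, 50.2% and 50.85% over the periods. The 3 tested small heat shock genes other than Hsp26 and Hsp27, and Hsp68, passed in neither measure from 0-2 to 4-6 hours. Of these, CG7409 (mean log2 signals of 5.02 and 4.84 at the 2 periods) and CG4461 (4.73 and 5.15) were also low. No lack of change was read from their missing calls.

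**Figure D5:**
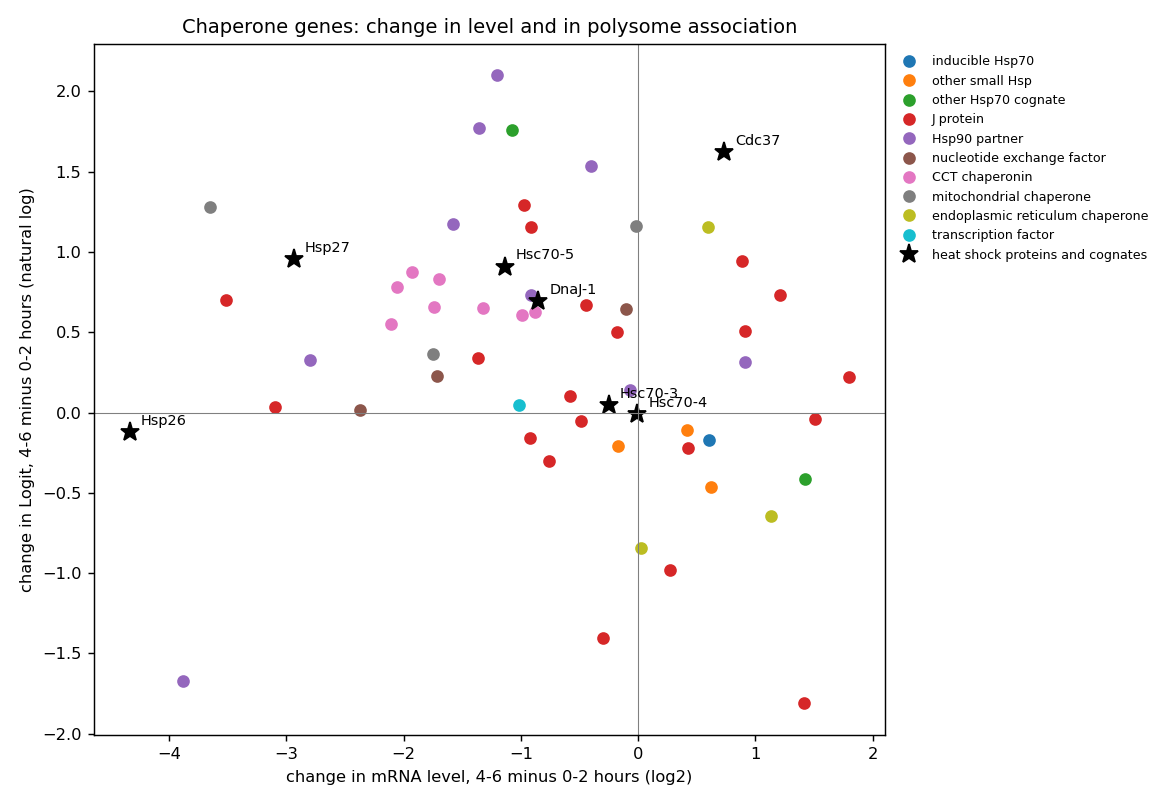
Change from 0-2 to 4-6 hours in level (log2, horizontal) and in Logit (natural logarithm, vertical) of the 53 other tested chaperone genes by list (circles) and of the 7 heat shock proteins and cognates (stars). The 8 CCT subunits lie together at lower level and higher Logit, Hsp27, Hsc70-5 and DnaJ-1 lie in the same quadrant, and Hsp26 and Cdc37 lie outside it.

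The gene whose profile was most like that of each member was found by Pearson's r over the 24 means of log2 signal by period and fraction, as a description in which the points share arrays and differ mostly by period. Hsp26 was closest to CtsK1 (r = 0.984), Hsp27 to CG1532 (0.967), Hsc70-3 to the receptor gene Tl (0.974), Hsc70-4 to PIG-S (0.917), Hsc70-5 to the tRNA synthetase gene GluProRS (0.967), DnaJ-1 to EndoGI (0.955) and Cdc37 to Elp3 (0.972).

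Ordered by occupancy, the members changed places between periods. At 0-2 hours the means ran from 37.7% ± 1.4 for Hsc70-5 and 40.0% ± 0.34 for Cdc37 (SD, n = 2) to 64.9% ± 5.4 for Hsp26. The other means lay between 53.2% and 57.0%. Among these the gradients of Hsc70-4 and Hsp27 overlapped, both of Hsc70-3 were above those of Hsc70-4 and Hsp27, and those of DnaJ-1 overlapped Hsp27 and Hsc70-3. At 4-6 hours Cdc37 was highest, at 77.1% ± 1.1, followed by Hsp27 (75.1% ± 2.9) and DnaJ-1 (72.6% ± 2.9). Hsp27 overlapped both Cdc37 and DnaJ-1, whereas DnaJ-1 was below Cdc37 on every gradient. Hsc70-4 was lowest at 52.9% ± 0.30. At 8-10 hours Hsp26 was lowest, at 34.6% ± 8.5, and Cdc37 (71.6% ± 6.2), Hsc70-5 (69.5% ± 0.12), DnaJ-1 (66.6% ± 1.9) and Hsp27 (66.2% ± 6.0) were highest. Cdc37 and Hsp27 overlapped each other and both of the other genes, and Hsc70-5 was above DnaJ-1 on every gradient. By the class limits 2 of the 7 members were preferentially untranslated at 0-2 hours, 0 at 4-6 hours and 1 at 8-10 hours, and 0 were preferentially translated at any period. Of all tested probe sets 16.9%, 6.34% and 5.91% were in the untranslated class at these periods in order, and 10.6%, 5.89% and 5.46% in the translated class.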

How the data were processed

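The authors hybridised Affymetrix Drosophila Genome 2.0 arrays, normalized them by RMA (background correction, quantile normalization, summary into probe sets) and deposited log2 values, which run from 2.46 to 14.25. Per the methods equal volumes of RNA of each fraction were labelled. Quantile normalization makes arrays alike whatever total mRNA a fraction held, but here not exactly so. The medians of the arrays ran from 4.56 to 5.13 on the log2 scale. No genome build goes with these values, and names of neighbouring genes come from a RefSeq table of Release 6. Per the methods unfractionated RNA came from embryos homogenised directly, whereas its labels quote the extraction of the EDTA gradients. All 66 arrays were grouped by their labels. Limma 3.58.1 in R 4.3.3 was run on 10358 probe sets with mean gradient signal in the top 50% in at least 1 period, separately on the 6 Logits, the 6 unfractionated arrays, the 6 log ratios of fractions 10-12 to 6-9 and the 9 arrays of fractions 1-5, with p adjusted by Benjamini-Hochberg over all tested probe sets of a contrast and a threshold of 0.05. With 2 samples per group an exact permutation test can give no p below 0.333. The number of arrays limits the precision. For genes with several probe sets the brightest in the gradients was used, all members were named, at most 3 called changes per chaperone list and measure were named, and for each member the gene of most similar profile was named. Alternatives were the weight of the pool, the boundaries of polysomes, the filter, a trend in the spread, a replicate block, median-centred arrays, summed gradient signal and leaving out arrays. The members and lists were chosen with earlier results of these data known, and a wrong older symbol of 1 list entry was dropped afterwards. The probe sets of Hsc70-3, Hsc70-4 and DnaJ-1 are of the kind that can match several transcripts.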

Additional observations from a re-analysis of the deposited data

How the results depend on the processing

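The called changes in occupancy of Hsp27, Hsc70-5 and Cdc37 from 0-2 to 4-6 hours and of Hsp26, Hsc70-5 and Cdc37 from 0-2 to 8-10 hours, and in level of Hsp26 and Hsp27 from 0-2 hours to both later periods, held under all 13 alternatives run. In heavy polysomes calls were lost under 8 (Hsp26, 4-6 to 8-10 hours), 3 (Hsp26, 0-2 to 8-10 hours), 6 (Cdc37, 0-2 to 4-6 hours) and 4 (Hsc70-5, 0-2 to 4-6 hours) of 12 alternatives. With EDTA they were lost under 3 (Hsp27), 3 (DnaJ-1) and 5 (Cdc37) of 11 at 4-6 hours, and under 1 (Hsp26), 7 (DnaJ-1) and 7 (Cdc37) at 8-10 hours. At 4-6 hours the adjusted p without replicates 1 and 2 of the period was 0.053 and 0.098 for Hsp27 and 0.0502 and 0.073 for DnaJ-1. Causes were not tested. For occupancy, counting the pool once shifts every Logit alike, so that alternative could not change a call. A change of filter, or leaving out a replicate of a period outside the contrast, leaves the size of a change fixed and alters only its SE and p. Leaving out 1 of 2 replicates leaves a lone sample that is assumed to vary like the others. Leaving out replicate 2 of both 4-6 and 8-10 hours of unfractionated RNA, the arrays with more bcd and osk mRNA, was chosen after seeing the data.

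With summed gradient signal in place of unfractionated RNA, the number of members called in level went from 2 to 5 (4-6 to 8-10 hours) and from 2 to 4 (0-2 to 8-10 hours). The log2 change of Hsp26 from 4-6 to 8-10 hours turned from -0.27 to 1.44, that of Hsc70-5 from 0-2 to 8-10 hours from -0.07 to 0.062, and that of Cdc37 from 0.74 to -0.26 (to 4-6 hours) and from 0.50 to -0.44 (to 8-10 hours). From 4-6 to 8-10 hours 1 member was called with no filter and 1 with arrays centred on the median. Without both replicate 2 arrays 2 members were called in place of 5 from 0-2 to 4-6 hours, the call of Hsc70-5 being lost (adjusted p = 0.063), and 0 in place of 2 from 4-6 to 8-10 hours, that of Hsc70-5 being lost there too (adjusted p = 0.23).

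With fractions 6 and 7 taken as non-polysomal the change in Logit of Hsc70-4 from 0-2 to 4-6 hours was 0.035 in place of -0.01, and with centred arrays 0.098. With centred arrays the changes from 4-6 to 8-10 hours were -0.011 for Hsc70-3 (0.05) and -0.020 for Hsc70-4 (0.04). Class membership depended on the weight of the pool. Counted once, it put 2, 5 and 6 of the 7 members in the preferentially translated class at the 3 periods in order and 0 in the untranslated class at any period. With fractions 6 and 7 non-polysomal 6, 1 and 2 members were untranslated. Of the other chaperone genes, 2 rose in occupancy from 4-6 to 8-10 hours over all their probe sets and 0 with no filter, in place of 1.

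With fractions 11-12 over 6-10 as the measure of heavy polysomes, 1, 0 and 1 members were called (0-2 to 4-6, 4-6 to 8-10 and 0-2 to 8-10 hours), in place of 2, 1 and 2. The change of Hsp26 from 0-2 to 4-6 hours was 0.052 (-0.17), and from 0-2 to 8-10 hours those of Hsc70-3, DnaJ-1 and Cdc37 were -0.019 (0.03), -0.16 (0.30) and -0.0056 (0.38). With fractions 10-12 over 8-9 the counts were 0, 0 and 1, and with the top 25% of signal 0 members were called from 4-6 to 8-10 hours. The count of all probe sets called from 0-2 to 4-6 hours went from 1112 to 593 and 0 under these measures.

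Replicate numbers were shared between periods by the labels, with correlations of deviations of 0.15, 0.58 and 0.25 in unfractionated RNA and -0.04, -0.09 and -0.29 in the Logit over the 3 pairs of periods, and with 2 numbers they mark no known shared batch. With the replicate block the number of members called with EDTA went from 3 to 0 at 4-6 hours and from 3 to 1 at 8-10 hours, the EDTA effects of Hsc70-5 at 0-2 hours and Hsc70-4 at 8-10 hours became -0.0084 (0.10) and -0.0022 (0.01), and no call in occupancy, level or heavy polysomes was lost. With only the arrays of the period 0 members were called at 8-10 hours. With centred arrays the EDTA effects of Hsp27 at 0-2 hours and Hsc70-3 at 8-10 hours were 0.030 and 0.088 in place of -0.02 and -0.02, and the difference in EDTA effect of Hsc70-4 between 0-2 and 4-6 hours was 0.031 in place of -0.05. In the top 25% of signal 1 member, Hsp26, passed the test of a difference in EDTA effect between 0-2 and 8-10 hours (adjusted p = 0.038). Over all probe sets EDTA called 280 with the block and 1581 within the period at 0-2 hours, in place of 900.

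With 1 replicate left out at a time, from 0 to 1 members were called in occupancy from 4-6 to 8-10 hours, 3 to 6 in level from 0-2 to 4-6 hours, 1 to 3 from 4-6 to 8-10 and 2 to 4 from 0-2 to 8-10 hours. In heavy polysomes the ranges were 0 to 3, 0 to 1 and 1 to 3 in the same order, with EDTA 0 to 3 at 4-6 and 1 to 2 at 8-10 hours, and 0 to 1 for the difference in EDTA effect between 0-2 and 8-10 hours. The values that changed sign, none of them called, had these ranges. In Logit they were -0.29 to 0.045 for Hsp26, -0.013 to 0.10 for Hsc70-3 and -0.038 to 0.016 for Hsc70-4 (0-2 to 4-6 hours), -0.013 to 0.10 for Hsc70-3 and -0.025 to 0.10 for Hsc70-4 (4-6 to 8-10), and -0.036 to 0.094 for Hsc70-4 (0-2 to 8-10). In level they were -0.80 to 0.31 for Hsc70-3 and -0.11 to 0.0996 for Hsc70-4 (0-2 to 4-6), -1.32 to 0.77 for Hsp26 (4-6 to 8-10), and -0.59 to 0.078 for DnaJ-1, -0.19 to 0.020 for Hsc70-4 and -0.15 to 0.00061 for Hsc70-5 (0-2 to 8-10). In heavy polysomes they were -0.11 to 0.29 for Hsc70-3 and -0.058 to 0.20 for Hsc70-4 (0-2 to 4-6), -0.25 to 0.15 for Hsc70-3 (4-6 to 8-10), and -0.73 to 0.22 for Hsp27 and -0.031 to 0.0999 for Hsc70-3 (0-2 to 8-10). With EDTA they were -0.0995 to 0.064 for Hsp27 and -0.091 to 0.29 for Hsc70-5 (0-2 hours), and -0.14 to 0.094 for Hsc70-3 and -0.015 to 0.033 for Hsc70-4 (8-10 hours). For the difference in EDTA effect they were -0.42 to 0.24 for Hsp26 and -0.11 to 0.013 for Hsc70-4 (0-2 to 4-6), and -0.27 to 0.10 for Cdc37 (4-6 to 8-10).

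Centring moved the median change in level of all tested probe sets from 0.10 to -0.05 (0-2 to 4-6 hours) and from -0.05 to -0.17 (0-2 to 8-10 hours). It moved the share of higher calls from 55.6% to 43.5% in occupancy from 4-6 to 8-10 hours and from 69.2% to 80.6% in heavy polysomes from 0-2 to 4-6 hours.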
